A study of Saccharomyces cerevisiae with 12 samples.

Results

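Nucleosome positions in budding yeast lacking Ioc3 were set against those of wild type over the whole nuclear genome. Ioc3 is a subunit of ISW1a, a chromatin remodeler in which it is joined to the ATPase Isw1. The comparison took every nucleosome listed on a nuclear chromosome for Ioc3-KO and for 3 wild-type groups, WT1, WT2 and WT3, and paired entries by the nearest summit within 70 bp. It used 4 of the 6 groups of the series and 8 of its 12 samples. The Ioc3-KO list held 77288 nuclear nucleosomes, against 76048 in WT1, 75746 in WT2 and 75969 in WT3. Merging the 4 lists gave 72427 consensus nucleosomes, of which 68392 were found in all 4.

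All groups were Saccharomyces cerevisiae BY4741, a haploid laboratory strain that lacks URA3, grown in YPD medium at 30 °C to mid-log phase. Ioc3-KO carried the knockout of IOC3, and the 3 wild-type groups differ in the labels by number only. Chromatin was cut with micrococcal nuclease (MNase), which digests linker DNA, and the protected DNA was sequenced. Each group had 2 replicates, which the authors joined into 1 list, so each list is called a pool here. There was 1 Ioc3-KO pool and 3 wild-type pools, and no measure could be compared between replicates of a group. An exact permutation test of 1 pool against 3 cannot give a p below 0.25, and the labels do not say whether the Ioc3-KO replicates come from more than 1 clone.

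Nucleosomes on yeast genes form an array that starts beside the promoter and loses its order further into the gene. ISWI-type remodelers such as ISW1a slide nucleosomes and set an even distance between neighbours, and Isw1 also works in ISW1b, with Ioc2 and Ioc4 in place of Ioc3. 3 values of each listed nucleosome describe such an array. The summit is its position. The fuzziness is the standard deviation of read positions around it, in bp, and is low where most cells hold the nucleosome at the same place. The peak height is the authors' signal at the summit, with no stated scale.

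The pools were alike in depth: the nuclear nucleosomes held 10347642 reads in Ioc3-KO, against 10297084 in WT1, 10281474 in WT2 and 10283173 in WT3. Totals this close may have been set by the authors or by the sequencing, which cannot be told apart. Over 246 windows of 50 kb, read counts deviated from the mean of the pools with an SD of 0.03 on the log2 scale in Ioc3-KO, against 0.02 in each wild-type pool. The extent of MNase digestion in each pool is not given in the sources used here, and its part in the differences below was not tested. IOC3 (YFR013W, sacCer3 chromosome VI, 169922 to 172285) held 5 summits with 825 reads in Ioc3-KO, against 16 summits with 2392 reads in WT1, 16 with 2426 in WT2 and 18 with 2570 in WT3. URA3 (YEL021W, chromosome V, 116167 to 116970), which encodes the last enzyme of UMP synthesis, held 5 summits with 698 reads in Ioc3-KO and none in any wild-type pool. The values at IOC3 go with the labels, and the Ioc3-KO pool also carries URA3, which the wild-type pools lack.

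More nucleosomes of Ioc3-KO had no counterpart. Of the Ioc3-KO nucleosomes, 4.77%, 4.94% and 4.81% had no partner within 70 bp in WT1, WT2 and WT3. The same share between any pair of wild-type pools lay between 3.45% and 3.83%. The mean was 4.84% in Ioc3-KO, against 3.68 ± 0.15% over the wild-type pools (SD, n = 3 pools), a difference of 1.16 percentage points. Every Ioc3-KO value lay above every wild-type value (exact permutation p = 0.25, 2-sided, the smallest possible).

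Nucleosomes gained in Ioc3-KO, those with no wild-type summit within 70 bp in any of the 3 pools, numbered 1243, which is 1.61% of its list. Nucleosomes lost, those found in all 3 wild-type pools with no Ioc3-KO summit within 70 bp, numbered 1085 of 70741, or 1.53%. A pool set against 3 others gives such counts by itself, so each pool was also set against the same pairs of wild-type pools. Against these pairs Ioc3-KO gained 1905, 1894 and 1911 nucleosomes, against 1359 gained by WT1, 1210 by WT2 and 1366 by WT3. In the same setting Ioc3-KO lacked 1551, 1530 and 1543 nucleosomes of the pairs, against 1230 lacked by WT1, 1327 by WT2 and 1368 by WT3. The Ioc3-KO counts were the higher in both directions, without overlap.

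Most gained nucleosomes were weak. Their median peak height was 0.605, against 1.34 for the whole Ioc3-KO list, and their median fuzziness was 43.6 bp, against 33.3 bp. They held a median of 92 reads and in all 1.03% of the Ioc3-KO reads, and 26 of 1243 were higher than the median nucleosome of the list. Gains of wild-type pools were weaker still: against the pairs of wild-type pools the median height of gained summits was 0.628, 0.623 and 0.626 in Ioc3-KO, against 0.550 in WT1, 0.539 in WT2 and 0.488 in WT3. Gains above 0.5 of the pool's median height numbered 858, 834 and 857 in Ioc3-KO, against 439, 370 and 452, while their median fuzziness was alike, at 42.7 to 43.0 bp in Ioc3-KO against 43.5 to 43.7 bp. Gained summits were thus mostly low, and they lay mostly between nucleosomes that wild type has too. Both also held for gains of the wild-type pools. Of the gained summits, 614 (49.4%) sat in a wild-type gap under 200 bp whose flanking nucleosomes were both kept within 35 bp in Ioc3-KO. A further 378 (30.4%) sat in wild-type gaps of at least 200 bp with both flanks kept. In the others at least 1 flanking nucleosome was not kept. When counted against pairs of wild-type pools, gains in a gap under 200 bp without both flanks made up 12.1%, 11.9% and 13.0% of the Ioc3-KO gains, against 4.93%, 6.61% and 7.83% of those of WT1, WT2 and WT3.

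The highest gained summits lay at URA3. 5 of the 8 highest were there, at −14, 147, 339, 498 and 649 bp from the start codon. In that order their peak heights were 2.30, 2.33, 2.58, 1.89 and 1.62, with 184, 166, 190, 153 and 131 reads, in a stretch where wild type had a gap of 1363 bp. The Ioc3-KO pool thus shows a row of nucleosomes over a gene that the parent strain lacks. The other 3 were a summit downstream of YGR109W-B (chromosome VII, 712417, height 1.74), a Ty3 element whose copies may share reads, 1 inside FAB1 (chromosome VI, 188262, height 1.70) and 1 inside PET18 (chromosome III, 154411, height 1.62). FAB1 encodes a phosphatidylinositol-phosphate kinase of the vacuole.

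The highest lost summits were mostly in repeated genes. Apart from the deleted IOC3, where a summit with a mean wild-type height of 2.03 had no Ioc3-KO summit within 495 bp, the nearest Ioc3-KO summit lay only 71 to 100 bp away. They were in YHR054C of the CUP1 repeat (mean wild-type height 3.22), in Ty elements YPR158W-B (2.10) and YER160C (1.92), in the acid phosphatase gene PHO12 (2.05), upstream of PAU7 (1.94) and in the subtelomeric helicase gene YRF1-8 (1.90). Reads of these may be divided between near-identical copies, so their loss is uncertain. AST2 (chromosome V, 361310), the remaining member of the 8, had a height of 2.05 in WT1, 2.30 in WT2 and 2.13 in WT3, and its nearest Ioc3-KO summit lay 84 bp away.

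A rarer event was a split, in which 1 wild-type nucleosome had 2 Ioc3-KO summits within 70 bp. Ioc3-KO held 447 splits of the 70741 nucleosomes shared by wild type (0.632%), and 40 places where 2 wild-type summits stood against 1 in Ioc3-KO. Against the pairs of wild-type pools Ioc3-KO split 647, 625 and 651 nucleosomes, against 264 split by WT1, 244 by WT2 and 257 by WT3. Merged summits differed less, with 136, 127 and 132 in Ioc3-KO, against 103, 118 and 104 in WT1, WT2 and WT3. Extra summits made up 1.59%, 1.73% and 1.58% of the Ioc3-KO list when set against WT1, WT2 and WT3, with a mean of 1.63%, against 0.958 ± 0.0154% over the wild-type pools (SD, n = 3 pools). This difference of 0.675 percentage points was 0.0874 with a matching limit of 50 bp and 0.323 without the lowest 25% of peak heights, so its size rests on both settings.

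Splits belonged to gene bodies, and gains leaned to intergenic DNA, as summits without a partner did in every pool. Of the splits, 389 of 447 (87.0%) lay in coding regions, against 59.9% of the gained, 65.3% of the lost and 74.7% of all Ioc3-KO nucleosomes. By distance, 37.4% of splits lay 1000 to 2000 bp past the start codon, where 19.96% of all Ioc3-KO nucleosomes lay. The places of splits in the wild-type pools were not counted. Divergent promoter regions held 2.91% of splits, but 14.3% of the gained and 11.6% of the lost nucleosomes, against 7.99% of the whole list. Summits without a partner made up 7.82% of intergenic summits in Ioc3-KO, against 6.92%, 6.53% and 7.15% in WT1, WT2 and WT3. At 500 to 750 bp past the start codon they made up 2.86% in Ioc3-KO, against 1.66%, 1.37% and 1.45%. Each of these shares is a mean over the other wild-type pools. GZF3, which encodes a GATA-type repressor of nitrogen-regulated genes, held a split 1564 bp into its coding region on chromosome X. Ioc3-KO had summits at 209946 and 210023 with heights of 1.33 and 2.13, where the wild-type pools each had 1 summit of 1.73, 1.96 and 1.96. The wild-type summits were at 210013, 210007 and 210008, close to the higher Ioc3-KO summit, and the lower one was extra. No neighbouring summits of any pool lay closer than 73 bp, and these 2 lay little further apart. The other 3 of the highest splits were in the Ty genes YBR012W-B and YLR410W-B and in the sodium pump gene ENA2, which have near-identical copies.

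**Figure D1:**
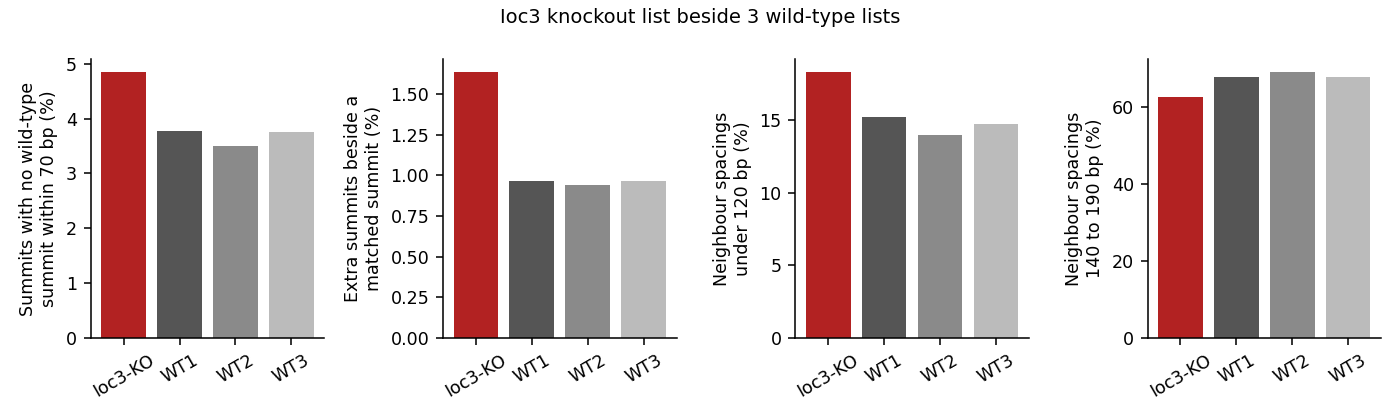
Bars give, for Ioc3-KO, WT1, WT2 and WT3 as percent of the list, summits with no wild-type summit within 70 bp, extra summits beside a matched summit, and neighbour distances under 120 bp and of 140 to 190 bp, with the first pair as means over the wild-type pools compared. Ioc3-KO stands highest in the first 3 panels (4.84%, against 3.78%, 3.51% and 3.75% in WT1, WT2 and WT3, for the first) and lowest in the last.

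Arrays in Ioc3-KO were less regular. Distances between neighbouring summits under 120 bp, shorter than a nucleosome core with its linker, made up 18.3% in Ioc3-KO, against 15.2% in WT1, 14.0% in WT2 and 14.7% in WT3. Distances of 140 to 190 bp, which hold the usual repeat, made up 62.6% in Ioc3-KO, against 68.0% in WT1, 69.1% in WT2 and 68.0% in WT3. The wild-type means were 14.6 ± 0.614% and 68.3 ± 0.631% (SD, n = 3 pools), and Ioc3-KO lay outside the wild-type range in both (exact permutation p = 0.25 each, 2-sided, the smallest possible). Within 140 to 190 bp the mean distance was 164.4 bp in Ioc3-KO, against 164.7, 164.4 and 164.4 bp in WT1, WT2 and WT3, so the Ioc3-KO value lay inside the wild-type range. It hides differences of opposite sign. Inside coding regions this mean was 163.4 bp in Ioc3-KO, against 163.9, 163.7 and 163.6 bp (exact permutation p = 0.5, 2-sided). Outside them it was 167.2 bp in Ioc3-KO, against 166.9, 166.3 and 166.6 bp (exact permutation p = 0.25, 2-sided).

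The difference was wider inside genes. Inside coding regions 66.5% of distances were of 140 to 190 bp in Ioc3-KO, against 73.3%, 74.7% and 73.5% in WT1, WT2 and WT3. Outside them the share was 54.4% in Ioc3-KO, against 57.1%, 57.6% and 56.7%. Wide gaps of over 200 bp were also commoner in Ioc3-KO inside coding regions. They made up 4.28% there, against a mean of 3.46 ± 0.101% over the wild-type pools (SD, n = 3 pools). Over all distances they made up 8.32% in Ioc3-KO, against 7.74%, 7.76% and 7.89% in WT1, WT2 and WT3. Both Ioc3-KO values lay above the wild-type range (exact permutation p = 0.25 each, 2-sided). Outside coding regions wide gaps include nucleosome-depleted promoters. There they made up 16.76% in Ioc3-KO, against 16.72%, 16.77% and 16.79% in WT1, WT2 and WT3, with Ioc3-KO inside the wild-type range. Across genes, the widest gap between 400 bp before and 50 bp after the start codon had a median of 196 bp in Ioc3-KO, against 198, 198 and 197 bp in WT1, WT2 and WT3. In the 1384 genes where this gap was at least 200 bp wide in all pools, it averaged 244.9 bp in Ioc3-KO, against 244.1, 243.5 and 244.3 bp. Promoter gaps as called were therefore of nearly the same width in Ioc3-KO and in wild type.

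Short distances were commoner further into genes in every pool. In percentage points, the gap between Ioc3-KO and wild type was widest at 750 to 1000 bp past the start codon. At 500 to 750 bp past the start codon 12.2% of distances were under 120 bp in Ioc3-KO, against 7.22%, 6.33% and 7.13% in WT1, WT2 and WT3. At 750 to 1000 bp the share was 16.1% in Ioc3-KO, against 10.2%, 8.83% and 8.94%. The gap stayed wide further in, with 21.3% in Ioc3-KO at 1000 to 1500 bp, against 16.8%, 14.9% and 15.7%. At 2000 to 3000 bp the share was 30.2% in Ioc3-KO, against 26.0%, 24.8% and 25.7%. Beyond 3000 bp it was 37.1% in Ioc3-KO, against 35.9%, 34.1% and 34.2%. In the first 250 bp it was 7.16% in Ioc3-KO, against 5.74%, 5.29% and 5.86%.

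The order of arrays was also read from the distances between all pairs of summits, as the height of each successive peak in that distribution over the trough beside it. The first peak stood 8.08 times above its trough in Ioc3-KO, against 12.0, 12.4 and 11.9 times in WT1, WT2 and WT3. For the second peak the ratio was 3.28 in Ioc3-KO, against 4.83, 5.26 and 4.88, and for the third 2.24 in Ioc3-KO, against 2.95, 3.14 and 2.99. By the fifth it was 1.69 in Ioc3-KO, against 1.78, 1.80 and 1.84. The contrast was thus lower in Ioc3-KO at each of these peaks, with most of the difference among near neighbours.

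**Figure D2:**
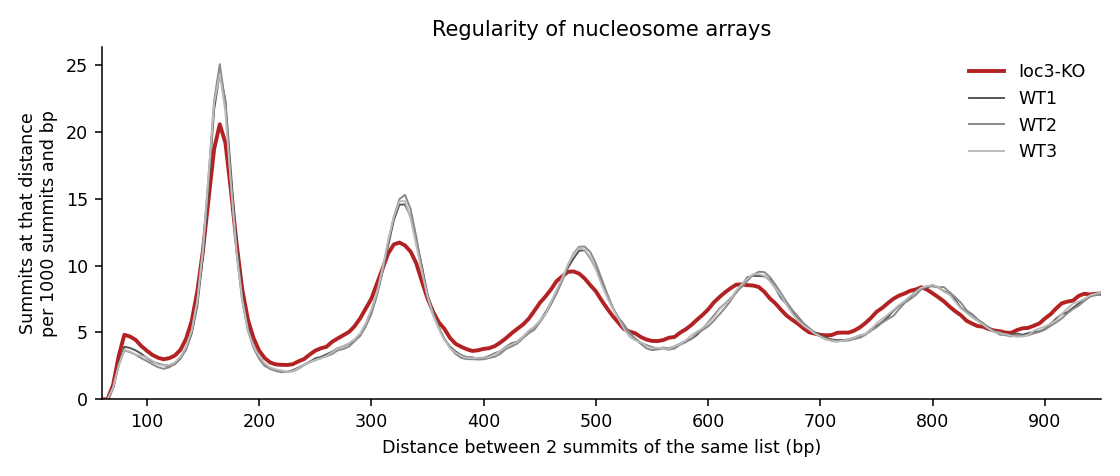
Number of other summits at each distance in bp from a summit, per 1000 summits and bp, for Ioc3-KO, WT1, WT2 and WT3. Each peak is 1 further nucleosome; Ioc3-KO has more pairs near 80 bp, lower first peaks over their troughs (8.08 times, against 12.0, 12.4 and 11.9 times) and later peaks at shorter distances.

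Peaks of that distribution lay closer in Ioc3-KO from the second onward: at 166, 321, 479, 627 and 789 bp in Ioc3-KO, against 166, 328, 489, 643 and 801 bp in WT1. WT2 and WT3 lay within 5 bp of WT1 at each peak. The same was measured on nucleosomes matched in all 4 pools, as the distance over a given number of repeats inside a coding region. Relative to the mean of the wild-type pools, the distance in Ioc3-KO was shorter by a mean of 0.47 bp over 1 repeat, 1.64 bp over 2, 2.91 bp over 3 and 5.85 bp over 6. Over 6 repeats it averaged 959.5 bp in Ioc3-KO, against 964.9, 966.1 and 965.1 bp in WT1, WT2 and WT3. It was shorter than the wild-type mean in 68.1% of 15386 stretches in Ioc3-KO, against 52.6% in WT1, 42.0% in WT2 and 51.5% in WT3 relative to the other wild-type pools. The difference thus grew with the number of repeats, and over 6 the Ioc3-KO value lay outside the wild-type range (exact permutation p = 0.25, 2-sided, the smallest possible).

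Positions along genes differed in the same sense. They are given as Ioc3-KO minus the wild-type mean, where positive is downstream. The median position was 2.0 bp downstream in the first 500 bp of coding regions, 0.33 bp downstream at 500 to 750 bp, and upstream beyond, by a median of −2.33 bp at 750 to 1000 bp and −3.33 bp at 1000 to 2000 bp. The medians of the wild-type pools, taken against the other 2, lay between −1.0 and 2.0 bp, the 2.0 bp being that of WT2 far from the start codon. In absolute terms, the median displacement was 4.67 bp in Ioc3-KO, against 3.0, 3.0 and 2.5 bp in WT1, WT2 and WT3. Displacements over 20 bp were found for 10.8% of nucleosomes in Ioc3-KO, against 6.15%, 6.27% and 6.07%. The median standard error of a mean read position was 2.90 bp in Ioc3-KO, against 2.74, 2.69 and 2.72 bp.

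**Figure D3:**
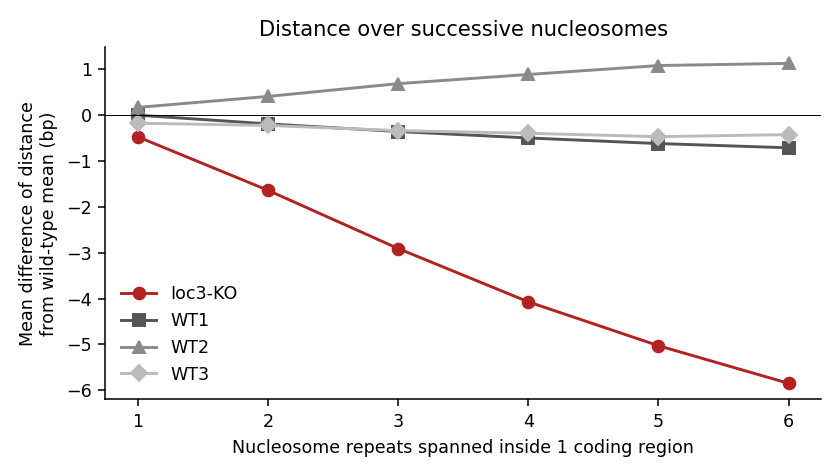
Distance over 1 to 6 nucleosome repeats inside coding regions, as the mean difference in bp from the wild-type mean for Ioc3-KO, and from the mean of the others for WT1, WT2 and WT3. Ioc3-KO goes down to −5.85 bp over 6 repeats, while the wild-type pools stay between −0.71 and 1.13 bp.

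Nucleosomes were broader in Ioc3-KO over most of the genome. Median fuzziness was 33.3 bp in Ioc3-KO, against 31.9, 31.5 and 31.9 bp in WT1, WT2 and WT3. Over matched nucleosomes the median difference, Ioc3-KO minus the wild-type mean, was 1.20 bp, and 68.0% of nucleosomes were broader in Ioc3-KO. The wild-type pools, each against the other 2, gave medians of 0.04, −0.28 and 0.23 bp. The chromosomes were alike in this, with medians between 1.06 and 1.32 bp in Ioc3-KO.

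Within genes the broadening had a place. It was 1.22 bp in the first 250 bp of coding regions, 2.18 bp at 250 to 500 bp, 2.22 bp at 500 to 750 bp and 1.87 bp at 750 to 1000 bp. Further in it was 1.20 bp at 1000 to 1500 bp, 0.54 bp at 1500 to 2000 bp and 0.16 bp beyond 4000 bp, while every wild-type median lay between −0.48 and 0.30 bp. The nucleosomes at 250 to 500 bp were broader in Ioc3-KO in 80.8% of cases. The difference between 250 to 750 bp and beyond 2000 bp was 1.88 bp in Ioc3-KO, against 0.14 bp in WT1, −0.25 bp in WT2 and 0.16 bp in WT3. The peak therefore came after the first nucleosomes of the gene, and it faded where wild-type arrays lose order themselves.

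Broadening was larger where the arrays of all 4 pools were regular. The 24321 nucleosomes with neighbours 140 to 190 bp away on both sides in every pool, a set that leaves out places where the spacing of Ioc3-KO differed, had a median difference of 1.91 bp, with 79.1% broader in Ioc3-KO, and the 4088 beside a gap of at least 200 bp had 0.43 bp. By fuzziness averaged over the pools, the sharpest 25% of nucleosomes had a difference of 1.49 bp, the next groups of that size 1.72 and 1.17 bp, and the fuzziest 0.27 bp. Coding regions had 1.36 bp, and divergent, tandem and convergent intergenic regions had 0.74, 0.74 and 0.72 bp.

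**Figure D4:**
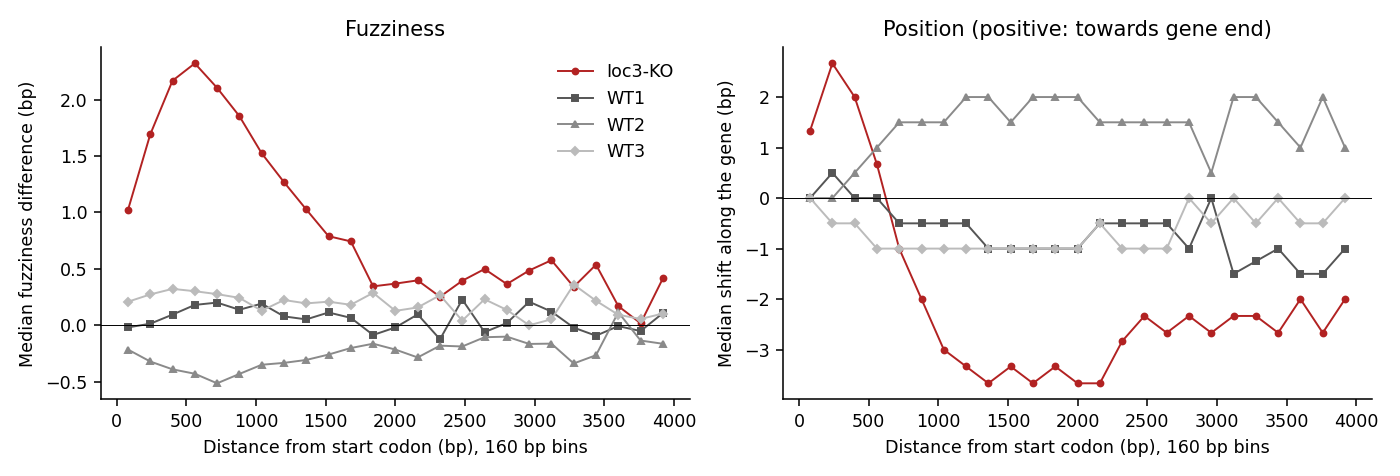
Median difference in fuzziness in bp and median displacement along the gene in bp, by distance from the start codon, for Ioc3-KO against wild type and for each of WT1, WT2 and WT3 against the others. The fuzziness difference of Ioc3-KO is highest in the first 1000 bp, and its displacement changes sign between 500 and 1000 bp; the displacement of WT2 stays between 0 and 2.0 bp.

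Single nucleosomes seldom passed a test, in which the spread comes from the 3 wild-type pools only. In limma's test with Benjamini-Hochberg adjustment, 2 of 68388 nucleosomes changed in fuzziness (0.00292%), both narrower in Ioc3-KO and both with few reads, and 10382 had an unadjusted p under 0.05. The same test gave 34, 177 and 63 calls for WT1, WT2 and WT3 against the other 2. Against the same pairs Ioc3-KO gave 17 to 193 calls, so the number of calls did not set it apart. Unadjusted p-values under 0.05 numbered 9876, 9592 and 10042 for Ioc3-KO against the pairs of wild-type pools, against 3254, 3961 and 3230 for WT1, WT2 and WT3. The 2 lay on chromosome IV at 1493262, with 4 reads in Ioc3-KO against 10, 10 and 8 in WT1, WT2 and WT3, and upstream of BET2. When the spread was modelled as a trend on peak height, an alternative, 1730 passed (2.53%), of which 1594 were broader (2.33%) and 136 narrower (0.199%). Broader nucleosomes made up 4.51% of those at 250 to 500 bp in coding regions and 4.22% at 500 to 1000 bp, against 1.94% in the first 250 bp, 0.664% beyond 2000 bp and 1.10% in intergenic DNA. In the same fit on 3 pools, Ioc3-KO gave 1874, 1857 and 2513 calls against the pairs of wild-type pools, and WT1, WT2 and WT3 gave 0, 2 and 5.

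Averaged over the nucleosomes of a coding region, fuzziness passed the test in many genes. This level was also chosen after values were seen, for the 5289 genes with at least 3 matched nucleosomes. The mean was higher in Ioc3-KO than in all 3 wild-type pools in 4003 genes (75.7%), and lower than in all 3 in 299 (5.65%). In limma's test with Benjamini-Hochberg adjustment 1479 genes changed (28.0%), 1456 broader (27.5%) and 23 narrower (0.435%). Against pairs of wild-type pools Ioc3-KO gave 1043 to 1385 calls, and no wild-type pool gave a call against the other 2. The median difference was 1.47 bp over all genes and 2.90 bp over those broader by the test. Genes with narrow nucleosomes in these pools passed more often: 39.2% of the 1323 genes with the lowest fuzziness over all pools rose, and 9.08% of the 1322 genes with the highest. By coding length, 28.2% of genes up to 876 bp rose, and 16.9% of those of 2004 bp or more.

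NIT2 had the largest rise. NIT2 (YJL126W, chromosome X, 184501 to 185424) encodes an amidase of the nitrilase family. Its mean fuzziness was 34.0 bp in Ioc3-KO, against 26.9, 25.3 and 27.1 bp in WT1, WT2 and WT3, a difference of 7.57 ± 0.832 bp (SE, adjusted p = 0.00957 by limma). Its first nucleosome, 13 bp past the start codon in Ioc3-KO, had a fuzziness of 24.2 bp there, against 22.5, 23.9 and 25.4 bp in the wild-type pools, inside their range. Further in, the pools parted: at 336 bp each wild-type pool had a summit of 31.9, 25.7 and 30.0 bp, whereas Ioc3-KO had its nearest at 399 bp with 42.3 bp. Ioc3-KO then had summits at 492, 569 and 667 bp where each wild-type pool had 1 at 493 to 498 bp and 1 at 655 to 663 bp. In the middle of NIT2 the array was thus displaced and held 1 summit more.

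Next were 2 iron-response genes, a respiratory gene and an acid phosphatase gene. TIS11 (YLR136C, chromosome XII, 415801 to 416658) encodes an RNA-binding protein that promotes decay of mRNAs when iron is short. Its mean was 31.6 bp in Ioc3-KO, against 25.0, 24.7 and 24.6 bp in WT1, WT2 and WT3 (difference 6.84 ± 0.646 bp, adjusted p = 0.00863). All 6 of its nucleosomes lay within 35 bp of their wild-type places, and each was broader in Ioc3-KO than in any wild-type pool. FET3 (YMR058W, chromosome XIII, 388822 to 390732) encodes the ferroxidase of high-affinity iron uptake. Its 12 matched nucleosomes averaged 37.8 bp in Ioc3-KO, against 31.0, 30.6 and 32.1 bp (difference 6.53 ± 0.757 bp, adjusted p = 0.00957), and in the fit with a trend 7 of 12 passed singly, the most of any gene. COX4, a cytochrome c oxidase subunit, averaged 37.0 bp in Ioc3-KO, against 30.6, 29.2 and 30.6 bp. PHO12 averaged 35.0 bp in Ioc3-KO, against 28.7, 27.8 and 28.7 bp. Reads of PHO12 and of its near-identical copy PHO11, which rose by 5.59 bp, may be divided between them.

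The other 14 of the 20 largest rises lay between 5.43 and 6.36 bp. They included RPA34, a subunit of RNA polymerase I, at 28.5 bp in Ioc3-KO against 22.2, 20.1 and 24.1 bp in WT1, WT2 and WT3, and MBA1, a receptor for the mitochondrial ribosome, at 29.1 bp against 23.1, 22.9 and 23.6 bp. Among them were genes of chromatin and the cell cycle: EAF3, a subunit of the NuA4 and Rpd3S complexes, at 32.5 bp in Ioc3-KO against 27.2, 26.4 and 26.4 bp, and PDS1, which encodes securin, at 31.6 bp against 25.8, 26.5 and 26.0 bp. TAH11, a replication licensing factor, had 30.6 bp in Ioc3-KO against 25.6, 24.1 and 25.4 bp. The rest were GIS2, PRM3, RCI50, RSA3, YPK3, BMT5, RTC2, NBP1 and MSW1. In all 20 genes the Ioc3-KO value lay above the 3 wild-type values, and all 20 passed the test without any 1 wild-type pool. Both largely follow from naming the largest rises among genes that passed.

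URA1 stood apart in the other direction. URA1 (YKL216W, chromosome XI, 25215 to 26159) encodes dihydroorotate dehydrogenase of pyrimidine synthesis. Its mean fuzziness was 29.4 bp in Ioc3-KO, against 38.0, 37.8 and 38.5 bp in WT1, WT2 and WT3, a difference of −8.71 ± 0.67 bp (SE, adjusted p = 0.00331 by limma). Ioc3-KO had 5 summits in the coding region, at 152, 310, 455, 632 and 792 bp, against 8, 7 and 6 less evenly placed summits in the wild-type pools. Mean log2 peak height over the matched nucleosomes, centred within each pool, was −0.11 in Ioc3-KO, against −1.15, −0.95 and −1.12, a rise of 0.96 ± 0.0794 (adjusted p = 0.00559). An array of taller and narrower nucleosomes thus stood in Ioc3-KO where wild type had low and broad ones. Between URA1 and OXP1, at 26514 on chromosome XI, a nucleosome had 125 reads in Ioc3-KO, against 39, 39 and 35 reads in WT1, WT2 and WT3, a 3.34-fold rise (adjusted p = 4.343e-09 by edgeR). URA3 is present in the Ioc3-KO pool only, and its part in the values at URA1 was not tested. Of 8 other genes of pyrimidine synthesis and its regulator Ppr1, a list written after URA1 was seen, URA6 rose by 2.23 bp and 7 did not pass, and the call of URA6 was lost without WT1 and without WT3.

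The other 22 narrower genes changed less, by −2.23 to −4.60 bp. They included NIT1, a second nitrilase-family gene, at 34.5 bp in Ioc3-KO against 39.7, 39.3 and 38.3 bp in WT1, WT2 and WT3. THI4, required for the thiazole part of thiamine, had 25.8 bp in Ioc3-KO against 28.5, 28.9 and 30.0 bp, and MDH2, cytosolic malate dehydrogenase, had 33.6 bp against 37.1, 36.2 and 35.7 bp. DFR1, dihydrofolate reductase, had 30.3 bp in Ioc3-KO against 33.9, 32.7 and 34.1 bp, and RPL32, a ribosomal protein gene, had 36.0 bp against 40.5, 39.2 and 38.4 bp. In each of these 5 the Ioc3-KO value lay below all wild-type values, which largely follows from naming genes that passed. Of all 23 narrower genes, 9 passed the test in every alternative run on single genes, URA1 and these 5 among them, and 14 lost their call in at least 1.

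Of 14 chromatin remodeler genes tested, IOC3 with its remaining nucleosomes included, 3 rose and none fell, with a median difference of 1.34 bp, against 1.47 bp and 28.0% of all genes. The 3 were IOC2, a subunit of ISW1b, at 30.6 bp in Ioc3-KO against 27.5, 27.3 and 27.3 bp in WT1, WT2 and WT3, ISW1 at 32.2 bp against 29.1, 29.2 and 29.0 bp, and DLS1, a subunit of an ISW2-containing complex, with a difference of 2.99 bp (adjusted p = 0.0151, 0.0158 and 0.0244 by limma). The call of DLS1 was lost without WT3, with an adjusted p of 0.0527 (gene mean fuzziness, DLS1). ISW2 (1.17 bp), CHD1 (1.21 bp) and IOC4 (1.24 bp) had positive differences that did not pass. PHO8, a vacuolar phosphatase gene, had a difference of −0.49 bp (adjusted p = 0.597), and MET16, a sulfate assimilation gene, of 1.68 bp (adjusted p = 0.195), so neither passed. Lists of the iron and the phosphate regulon were written after FET3, TIS11, PHO11 and PHO12 were seen. Of 30 iron genes 6 rose, including FIT2 by 3.99 bp and SIT1 by 3.56 bp, and none fell, with a median difference of 0.83 bp, lower than that of all genes. Of 26 phosphate genes 11 rose, including PHO5 by 3.38 bp and PHO84 by 2.59 bp, and none fell, with a median of 1.91 bp. Genes that prompted the lists, such as TIS11 and PHO12, are among those counted. Over all genes tested 27.5% rose and 0.435% fell. The call of PHO84 was lost without WT2 and without WT3.

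**Figure D5:**
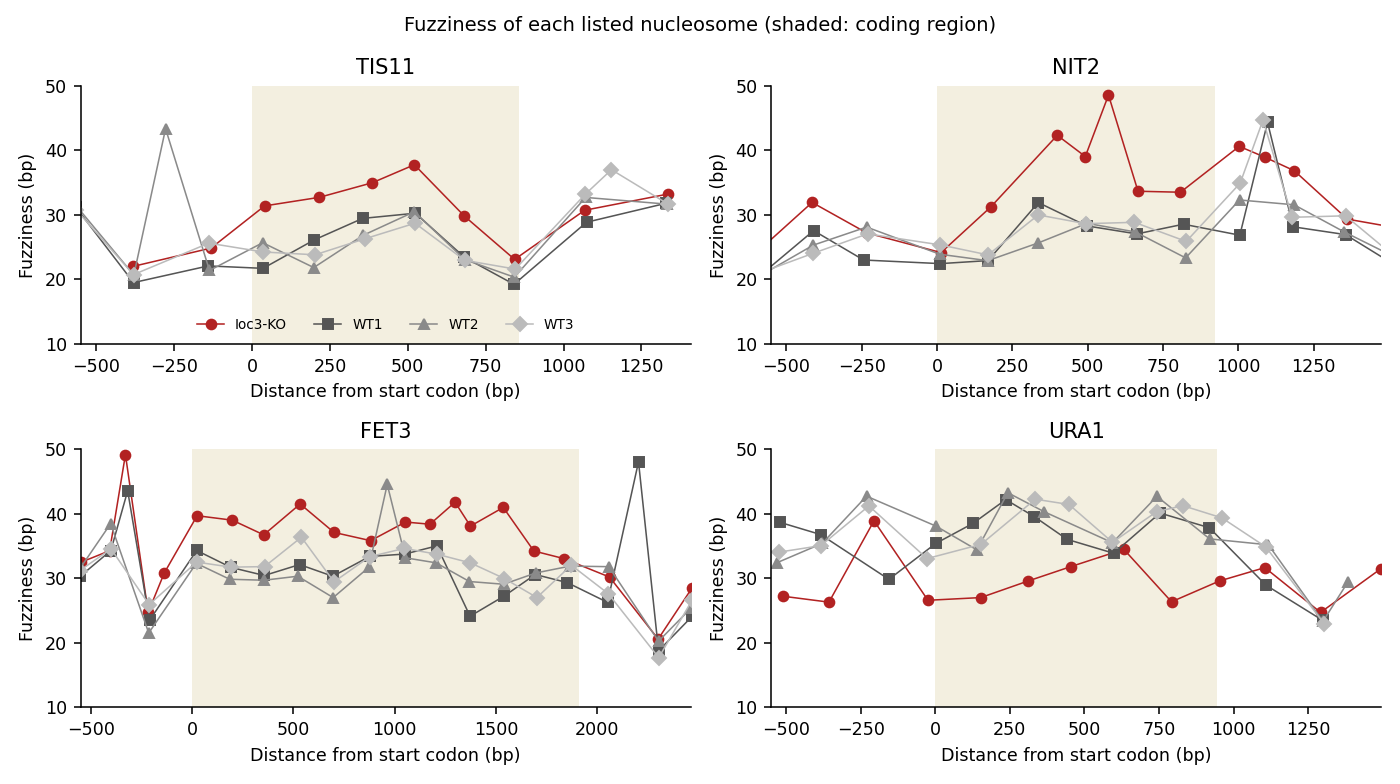
Fuzziness in bp of each listed nucleosome of TIS11, NIT2, FET3 and URA1 by distance from the start codon in bp, for Ioc3-KO, WT1, WT2 and WT3, with the coding region shaded. Most Ioc3-KO points lie above wild type inside the first 3 genes, and most lie below it in URA1 (means 29.4 bp in Ioc3-KO, against 38.0, 37.8 and 38.5 bp).

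Peak height and reads leaned higher in intergenic DNA than in genes. Centred log2 peak height of intergenic nucleosomes was higher in Ioc3-KO than in the wild-type mean by a median of 0.22 in divergent, 0.24 in tandem and 0.23 in convergent regions, and by 0.00 in coding regions. On the deposited scale, without centring, these medians were 0.12, 0.14 and 0.13 in the intergenic regions and −0.10 in coding regions. The sign in coding regions, and whether intergenic DNA differed more than genes, thus rest on the scaling. In the centred values WT1 leaned the same way, by 0.10 to 0.11, while WT2 and WT3 lay between −0.06 and −0.03. In this measure Ioc3-KO lay furthest from the other pools and WT1 next. In limma's test with Benjamini-Hochberg adjustment the height of 69 of 68392 nucleosomes changed (0.101%), 56 higher (0.0819%) and 13 lower (0.019%). The balance of directions depended on the setting: 25 were higher and 18 lower on the deposited scale, 672 higher and 900 lower without the lowest 25% of peak heights, and 96 higher and 116 lower among regularly spaced nucleosomes. Against the other 2, WT1, WT2 and WT3 gave 73, 147 and 114 calls, and Ioc3-KO against the same pairs gave between 453 and 1144. Of the 56 higher with all nucleosomes and centred values, 53 were intergenic, and all 13 lower were in coding regions. Coding regions held 51995 of all 68392 matched nucleosomes.

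Read counts divided in the same way. By edgeR's quasi-likelihood test with Benjamini-Hochberg adjustment 1263 of 68235 nucleosomes changed (1.85%), 685 higher (1.0%) and 578 lower (0.847%). In intergenic DNA 511 rose and 26 fell, while in coding regions 174 rose and 551 fell. Of the 68388 nucleosomes tested for fuzziness, nearly the same set, 16019 were intergenic and 51995 in coding regions. These calls rest on the choice of wild-type pools and of the tool: without WT2 there were none, without WT3 324, and without WT1 2390, and DESeq2 gave 1. Of the 16 nucleosomes named for reads, 15 lost their call with DESeq2 and all 16 without WT2.

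The nucleosomes with the largest rises in reads were low in wild type. The largest were upstream of DMA2, with 33 reads in Ioc3-KO against 12, 3 and 5 in WT1, WT2 and WT3 (4.92-fold), and downstream of BUD20, with 41 against 13, 9 and 9 (3.97-fold). Upstream of MRPL17 (chromosome XIV, 172400), a gene for a mitochondrial ribosomal protein, there were 58 reads in Ioc3-KO, against 12, 16 and 18 in WT1, WT2 and WT3, a 3.79-fold rise (adjusted p = 0.000721 by edgeR). Downstream of ATP11 (chromosome XIV, 43284), which encodes an assembly factor of the mitochondrial ATPase, there were 80 reads in Ioc3-KO, against 18, 24 and 23, and a peak height of 0.996, against 0.215, 0.288 and 0.275. Downstream of OLE1, the fatty acid desaturase gene, there were 50 reads in Ioc3-KO, against 17, 16 and 11. Downstream of GEA1 there were 28 reads in Ioc3-KO, against 6, 8 and 9, and downstream of MET4 there were 46, against 20, 7 and 15. Nucleosomes were named only where the Ioc3-KO value lay outside the 3 wild-type values, so counts above all 3 follow from the rule. Among the largest rises in height were nucleosomes upstream of the ribosomal protein genes RPL4A, RPL18B and RPL8B, but with only 10, 17 and 24 reads in Ioc3-KO. For RPL18B there were 9, 5 and 7 reads in WT1, WT2 and WT3, and for RPL8B 5, 8 and 8. RPL4A had 2, 11 and 3 reads there, so its counts overlapped. The others were near MKC7, COX18 and TUB3 and at 7027 on chromosome X, at 1.70 to 2.01 on the log2 scale.

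The largest falls were inside genes. In GUT1, the glycerol kinase gene, a nucleosome 1441 bp past the start codon (chromosome VIII, 37067) had a peak height of 0.456 in Ioc3-KO, against 1.46, 1.49 and 1.40 in WT1, WT2 and WT3, a log2 change of −1.57 ± 0.141 (adjusted p = 0.00598 by limma). Its reads differed less, at 90 in Ioc3-KO against 134, 129 and 120. RRM3, a DNA helicase gene, had a height of 0.442 in Ioc3-KO against 1.20, 1.25 and 1.13 at 171772 on chromosome VIII, and ZAP1, the zinc-responsive activator, 0.572 against 1.47, 1.45 and 1.47 at 332288 on chromosome X. The other falls named by the rule, in SEO1, FRA1, STB5, RDR1 and ETP1, were of −1.16 to −1.08 on the log2 scale. Of falls in reads, SSA1, an Hsp70 gene, had 74 reads in Ioc3-KO against 132, 168 and 144 at 140892 on chromosome I, and PSD1, for phosphatidylserine decarboxylase, had 81 against 151, 138 and 167. The remaining 6, in YRF1-6, YRF1-3, YRF1-2 (with 2 nucleosomes) and DDI2 and upstream of PAU19, were in genes with near-identical copies.

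Averaged per gene, log2 peak height passed in 12 of 5289 genes (0.227%), 5 higher and 7 lower. URA1, MDH2 and NIT1 were higher, by 0.96, 0.51 and 0.48, and also narrower. COX4, FET3, PHO11, PHO12, PIR3, THI5 and PWP1 were lower, by −0.60 to −0.38, and also broader by the test of fuzziness. YIP3 and LTO1 were higher with no call in fuzziness. The count was 239 without WT1, 8 without WT2 and 0 without WT3, and with at least 5 nucleosomes per gene it was 10 higher and 46 lower. Reads of THI5 may be divided between near-identical copies.

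Position passed limma's test for 901 of 68392 nucleosomes (1.32%), 478 towards the end of the chromosome's numbering (0.699%) and 423 towards its start (0.618%). Of the 743 in coding regions, 351 had moved downstream along the gene and 392 upstream. Most of these steps were large: 707 of 901 were over 40 bp. The 16 with the largest steps all lay within 1 bp of 70 bp, the limit of matching, so they mark where matching stops. An example is RPB2, a gene for a large subunit of RNA polymerase II, with a summit at 614880 on chromosome XV in Ioc3-KO, against 614808, 614813 and 614808 in WT1, WT2 and WT3 (adjusted p = 0.0353). With a limit of 50 bp no position passed, and none did in the mean read position or without any 1 wild-type pool. In 1011 nucleosomes the 3 wild-type summits were identical, which sets the spread to 0 before limma moderates it.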

How the data were processed

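MNase-seq was measured in 12 samples, of which 8 (Ioc3-KO and WT1 to WT3, 2 replicates each) were used. Per the submitters' processing notes, the authors used Trimmomatic, Bowtie2 and SAMtools with sacCer3, with no versions. Which tool called positions, and with what smoothing, is not given in the sources used here. Replicates were joined by the authors into 1 deposited list per group. Per the file headers, each entry gives a read count, a peak height (signal of the authors' track, scale not stated), and the summit, mean read position and standard deviation of read positions, which are treated as scores in bp. Whether positions count from 0 or 1 is not stated.

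Consensus nucleosomes were summits of the 4 lists smoothed with a Gaussian of SD 20 bp, at least 100 bp apart, each matched to the nearest entry within 70 bp. Coding regions came from the R64 gene table (6002 genes), which holds no UTRs, with strand taken from the systematic name. Fuzziness, position, log2 of the deposited peak height centred within each pool, and gene means (3 or more matched nucleosomes) were tested with limma, and read counts with edgeR (mean of at least 10 reads). The fits have 2 residual degrees of freedom, all from wild type, so Ioc3-KO is assumed to vary like wild type. A false discovery rate of 0.05 by Benjamini-Hochberg adjustment was the threshold. The tests were run on simulated pools with known changes, in which Ioc3-KO was given the spread of wild type. That check required the right size and sign of estimates and set no limit on false calls. Tools were R 4.3.3, limma 3.58.1, edgeR 4.0.16, DESeq2 1.42.0, Python 3.11.15, numpy 2.4.6, pandas 2.3.3, scipy 1.17.1 and matplotlib 3.10.9. DESeq2, a limit of 50 bp, other filters, a trended or robust spread and leaving out each wild-type pool were alternatives.

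Named were the 8 called nucleosomes with the largest change in each direction and outside the wild-type values, the 8 highest gained and lost, the 4 highest splits, a set of loci and remodeler genes, and, at the level of genes, the 20 largest rises and 23 falls, a rule added after values were seen. The members and lists were chosen with earlier results of these data known.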

Additional observations from a re-analysis of the deposited data

Results flagged for a closer look

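The mitochondrial genome was used in no comparison. Its entries numbered 364 in Ioc3-KO, against 274, 267 and 269 in WT1, WT2 and WT3. They held 2873 reads in Ioc3-KO (0.0278% of its reads), against 1718, 1330 and 1268 in the wild-type pools (0.0167%, 0.0129% and 0.0123%). The Ioc3-KO values lay above all wild-type values, and the difference was not tested further.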

How the results depend on the processing

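No paired analysis was possible because each list joins both replicates and its columns carry no replicate number. The differences in shares, distances and median fuzziness kept their sign in every alternative run on them, but the balance of higher and lower calls among single nucleosomes did not. The difference in nucleosomes without a partner, 1.16 percentage points, was 2.64 with a limit of 50 bp, 0.556 without the lowest 25% of peak heights, and 1.02 to 1.26 without 1 wild-type pool. For extra summits, 0.675 points, these were 0.0874, 0.323 and 0.665 to 0.688. The difference in distances under 120 bp, 3.63 points, was 1.99 without the lowest 25% and 3.30 to 3.91 without 1 wild-type pool. The median difference in fuzziness, 1.20 bp, stayed between 1.09 and 1.30 bp, and that between 250 to 750 bp and beyond 2000 bp, 1.88 bp, between 1.80 and 1.92 bp.

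Counts of single nucleosomes depended on the setting. For fuzziness, 2 calls became 1 with 50 bp, 1671 (1532 higher, 139 lower) without the lowest 25%, 4 without chromosome ends and rDNA, 31 with a robust spread, 1730 with a trend, 629 among regularly spaced nucleosomes and 17 to 193 without 1 wild-type pool. For position, 901 calls became 0 with 50 bp, with the mean read position, among regularly spaced nucleosomes and without any 1 wild-type pool. For peak height, 69 calls became 134 with 50 bp, 1572 (672 higher, 900 lower) without the lowest 25%, 498 with a robust spread, 2570 with a trend, 43 (25 higher, 18 lower) on the deposited scale without centring, 212 (96 higher, 116 lower) among regularly spaced nucleosomes and 453 to 1144 without 1 wild-type pool. For reads, 1263 calls (685 higher, 578 lower) became 938 (460 higher, 478 lower) without the lowest 25%, 1 with DESeq2, 111 among regularly spaced nucleosomes and 0 to 2390 without 1 wild-type pool. For genes, 1479 calls in fuzziness became 1998 with a trend, 1613 with at least 5 nucleosomes and 1043 to 1385 without 1 wild-type pool, and 12 in height became 230, 56 and 0 to 239. The cause was not tested. As a control in the fits without a trend, WT1, WT2 and WT3 against the other 2 gave 34, 177 and 63 calls in fuzziness, 73, 147 and 114 in height, 6, 0 and 0 in reads, and 0 in position. Regularly spaced nucleosomes, the fits per gene and the matched controls were added after seeing the data. A wild-type consensus was planned, except for the difference in fuzziness along genes, where it was added later. Of genes named for fuzziness, all 20 broader and 9 of 23 narrower ones kept their call in every alternative run on them. The 20 were the largest rises of 1456 broader genes, while the 23 were all narrower genes. Their shares are therefore not comparable. With about 138 reads per nucleosome, single nucleosomes carry large counting error.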
